A study of Mus musculus with 4 samples.

Results

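The Myc network genes are the 10 mouse genes Myc, Mycn, Mycl, Max, Mxd1, Mxi1, Mxd3, Mxd4, Mnt and Mga, out of 21951 protein-coding genes in the GENCODE M21 annotation of the GRCm38 genome. Their N6-methyladenosine (m6A) peaks were taken as all peaks whose summit, the position of highest enrichment, lay in an exon of 1 of these genes. This gave 21 of 15635 peaks in replicate 1 and 15 of 14872 peaks in replicate 2. In m6A meRIP-seq, fragmented RNA is pulled down with an antibody against m6A, and positions where the immunoprecipitated (IP) fragments pile up above a background are called as peaks. The series holds 2 IP samples, each with its own peak list, and 2 input samples, for which no file was analysed here. All 4 samples were c-Kit+ cells that magnetic beads had enriched from the foetal liver of C57BL/6 mice, and the series asks what the m6A reader Ythdf2 does in haematopoiesis. Per the study's methods the cells were Ythdf2 CTL, the control genotype, whose floxed Ythdf2 allele carries GFP after the start codon, and the samples were biological replicates. The gestational age and the number of animals behind a sample are not given in the sources used here. The labels name total RNA for the IP samples and polyA RNA for the inputs. There was no second condition, so no difference between conditions could be tested, and values are given per replicate or as mean ± SD over both.

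MYC, MYCN and MYCL are transcription factors that bind DNA as heterodimers with MAX and drive growth, ribosome production and cell cycle entry. MAX also pairs with the MXD proteins (MXD1, MXI1, MXD3, MXD4), with MNT and with MGA, and these heterodimers compete with MYC-MAX for the same DNA sites and repress transcription. MYC itself is short-lived as an mRNA and as a protein, and in blood progenitors the balance between MYC and MXD proteins shifts as cells leave the cycle and mature. m6A is placed on mRNA by the METTL3-METTL14 complex within the DRACH motif (where D stands for A, G or T, R for A or G, and H for A, C or T), most often as GGAC, and is typically dense in long internal exons and near stop codons. YTHDF2 binds m6A and recruits deadenylases, which shortens the life of the bound mRNA.

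The sequences below are the GGACH sites closest to the midpoint between the summits of both replicates (or to the summit, where only 1 replicate had a peak), shown because they are the letters in which the methylated adenosine of each peak would most simply be sought. Each is written 5′ to 3′ on the strand of the mRNA from the GRCm38 reference, with the 5 bases of the motif in capitals and 8 bases on either side, and the peak lists do not tell which adenosine was modified. Positions are those of the whole printed stretch. None is printed for the replicate 1 peak at the start of exon 2 of Myc, whose closest GGACH site lies across the splice junction in exon 1. Nor is one printed for exons 8, 15 and 17 of Mga or for the unshared replicate 1 peak in its exon 3. No GGACH site lay within 100 nt of the midpoint or summit there.
Myc exon 1, 5′ UTR (chr15:61985801-61985821, plus strand): gcgagccaGGACAggactccc
Myc exon 2, coding (chr15:61987909-61987929, plus strand): atcatccaGGACTgtatgtgg
Myc exon 3, coding (chr15:61989831-61989851, plus strand): tctgaaaaGGACTtattgagg
Mycn exon 3, 3′ UTR (chr12:12936853-12936873, minus strand): agggggcaGGACAcggggttc
Mycl exon 2, 3′ UTR (chr4:123001971-123001991, plus strand): agtgtgggGGACAgacagtaa
Max exon 5, 3′ UTR (chr12:76938288-76938308, minus strand): tctgtggaGGACAgacggccg
Mxd1 exon 6, coding (chr6:86651000-86651020, minus strand): ctcaatggGGACCtgggctgg
Mxi1 exon 6, 3′ UTR (chr19:53371728-53371748, plus strand): gcgtcctaGGACCcagcatgg
Mxd3 exon 6, 3′ UTR (chr13:55325744-55325764, minus strand): ctctccttGGACTgagcctgc
Mxd4 exon 6, 3′ UTR (chr5:34176807-34176827, minus strand): ttcggtcaGGACTcaagttgc
Mnt exon 2, coding (chr11:74836669-74836689, plus strand): gcacccctGGACTcagcatta
Mga exon 2, coding, replicate 1 only (chr2:119902708-119902728, plus strand): agatggagGGACAgtgacagg
Mga exon 2, coding (chr2:119903232-119903252, plus strand): accaggaaGGACAtattatct
Mga exon 3, coding (chr2:119917095-119917115, plus strand): ggaaaagaGGACTtaggcaaa
Mga exon 24, coding (chr2:119964117-119964137, plus strand): gatctgaaGGACTcaagcata

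Every gene of the network carried a peak in at least 1 replicate, and 7 of the 10 carried one in both. These 7 were Myc, Mycn, Max, Mxi1, Mxd1, Mnt and Mga. Over all protein-coding genes, 30.9% had an exonic summit in both replicates and 37.1% in at least 1. That background includes genes with no reads in these cells, and since mRNA abundance was not measured here, a gene without a peak may lack the modification or lack the reads. Mycl and Mxd3 had a peak in replicate 1 only, and Mxd4 in replicate 2 only. Peaks of the 2 lists were called shared when they overlapped by at least 1 bp, which held for 16 of the 21 member peaks of replicate 1 (76.2%, exact 95% interval 52.8 to 91.8) and for 14 of the 15 of replicate 2 (93.3%, 68.1 to 99.8). Over all exonic peaks, 84.2% and 86.8% were shared. These intervals, and those of the shares given below, cover counting error only and treat peaks of the same gene as independent.

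**Figure D1:**
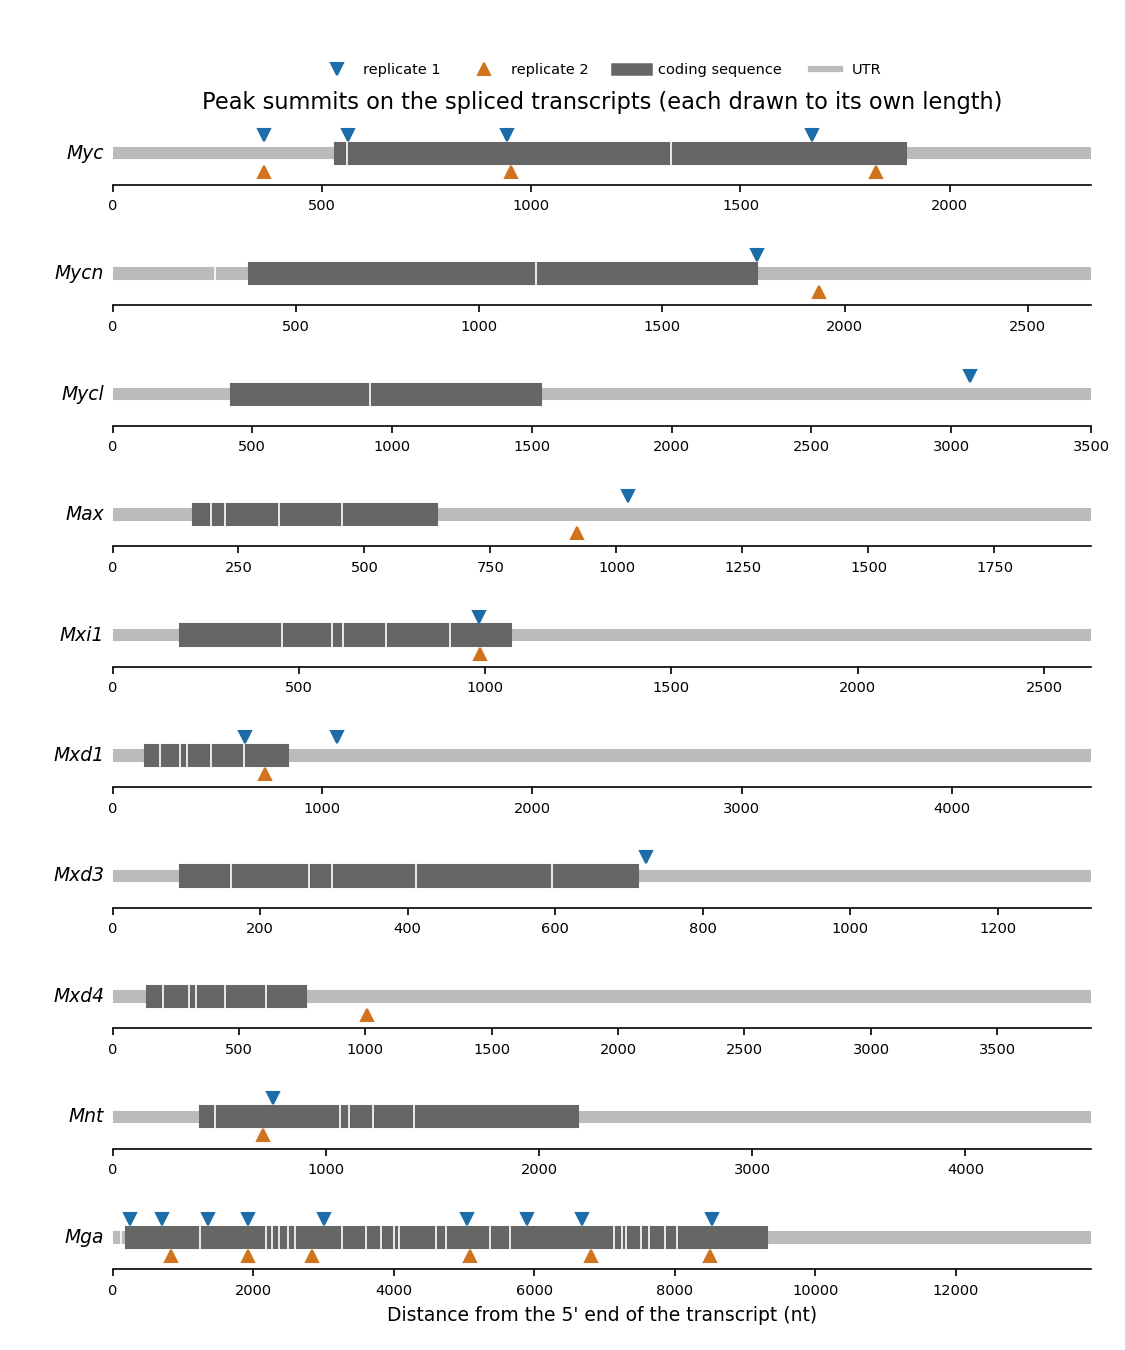
Positions of the peak summits on the spliced transcript of each gene, with distance from the 5′ end in nt on the horizontal axis (each transcript has its own scale), coding sequence in dark grey, UTRs in light grey and exon borders as white lines. Triangles above the transcript are replicate 1 and those below are replicate 2, and most summits fall in the coding sequence or near its end, with 9 and 6 summits along Mga.

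Each peak is described by its enrichment and its significance. The fold enrichment is the IP pileup over the local background at the summit, as MACS2 gave it to the authors, and the −log10 q is the adjusted significance of that enrichment within its own list. The IP reads at a summit and the background behind them, in reads at the depth of the IP library, were computed from these deposited values. The sequencing depth of each library is not known from the lists. Between one-to-one shared exonic peaks of all genes (n = 9676 pairs), the log2 fold of replicate 2 over replicate 1 had a mean of 0.04 and an SD of 0.45, and the median distance between summits was 16 bp. A difference under this SD was read as within the spread between replicates.

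Myc, the founding member of the network (ENSMUSG00000022346, chr15:61985391-61990374), had 4 peaks in replicate 1 and 3 in replicate 2, spread over all 3 of its exons. In exon 1 the summit fell on the same base in both replicates, in the 5′ UTR, 169 nt before the annotated CTG start of the longer MYC protein, which lies 45 nt before the usual ATG. The fold there was 2.20 in replicate 1 and 2.39 in replicate 2, with 149 and 147 IP reads. In exon 2 the shared peak lay in the coding sequence, with folds of 2.16 and 2.01 and with 175 and 168 IP reads. The summits of that peak were 10 nt apart, and the printed GGACT lay 31 and 21 nt downstream of them.

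The peak in exon 3 of Myc covered most of that exon, with widths of 933 and 980 bp, folds of 1.90 and 1.80 and with 197 and 196 IP reads. Its summits were 152 nt apart, 224 and 72 nt before the stop codon, so the position within the exon was less settled than in exons 1 and 2. The peak of replicate 1 without a partner had its summit on base 1 of exon 2, with a fold of 2.43, a −log10 q of 17.8 and 146 IP reads, and it reached 135 bases into the intron before that exon. All 3 shared Myc peaks differed between replicates by less than 1 SD. Together the peaks found in both replicates covered 65.3% of the 2338 nt of the Myc transcript and 9 of its 11 GGACH sites.

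The folds of Myc were low and its reads high. Among all exonic peaks, its peaks stood at percentile 2.84 to 13.5 by fold. The background at its summits was 59.4 to 103 reads in replicate 1 and 61.0 to 108 reads in replicate 2. In exon 3 the IP reads stood at percentile 99.7 in replicate 1 and 99.8 in replicate 2. For peaks with a background of at least 41.9 reads, the lowest among the peaks of Myc, Max and Mxi1, the median fold over all genes was 2.28 in replicate 1 (n = 1936 peaks) and 2.25 in replicate 2 (n = 1660 peaks). That limit was set after the values were seen. Of the peaks of Myc, Max and Mxi1, 4 of 6 lay below this median in replicate 1 and 3 of 5 in replicate 2. A fold is a ratio at 1 position and not the share of Myc mRNA that was methylated.

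Mycn, the family member best known from neural and stem cells (ENSMUSG00000037169, chr12:12936093-12941914), had 1 peak in each replicate, at the end of its coding sequence in exon 3. Its fold was 4.94 in replicate 1 and 5.44 in replicate 2, a mean of 5.19 ± 0.357 (SD, n = 2), with −log10 q of 20.8 and 22.3. These rested on 60 and 63 IP reads over backgrounds of 11.4 and 10.7 reads. The summit lay 1 nt before the stop codon in replicate 1 and 169 nt after it in replicate 2, within peaks of 703 and 779 bp. Between these summits lies the printed GGACA, 144 nt downstream of the first and 26 nt upstream of the second. Another GGACH site was closer to the summit of replicate 1, 7 nt upstream of it.

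Mycl, the third of the MYC family (ENSMUSG00000028654, chr4:122995652-123002485), was called in replicate 1 alone, in the 3′ UTR 1538 nt after the stop codon. The fold was 4.26, near the median of all exonic peaks, but it came from 5 IP reads (exact Poisson 95% interval 1.62 to 11.7) over a background of 0.410 reads. Its −log10 q was 2.80. At the same background and depth, 5 IP reads would also have been needed in replicate 2 to reach the smallest significance in that list. With so few reads, whether Mycl differed between replicates was not detectable. None of its 22 GGACH sites lay under a peak in both replicates.

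Max, the shared partner of all these proteins (ENSMUSG00000059436, chr12:76937269-76962201), had 1 peak in each replicate in the 3′ UTR of its last exon. The folds were 2.35 and 2.35, with 149 and 145 IP reads over backgrounds of 62.9 and 61.2 reads. The −log10 q was 16.9 and 15.2. The summits lay 379 and 278 nt after the stop codon within peaks of 947 and 943 bp. The printed GGACA lay 8 nt upstream of the summit of replicate 2 but more than 100 nt upstream of that of replicate 1. The GGACH site closest to the summit of replicate 1 was a different one, 28 nt downstream of it. Like Myc, Max was thus among the peaks with many reads and a low fold (percentile 11.6 and 11.1 by fold).

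Of the 4 MXD repressors, Mxd1 and Mxi1 had peaks in both replicates. Mxd1, which rises as blood cells mature (ENSMUSG00000001156, chr6:86647042-86669161), had its strongest peak in the last exon with a fold of 4.60 in replicate 1 and 4.22 in replicate 2, a mean of 4.41 ± 0.269 (SD, n = 2). The IP reads were 51 and 61 and the −log10 q was 16.4 and 16.7. In replicate 2 this was a single peak of 739 bp that overlapped both peaks of replicate 1, which were 457 and 229 bp wide, and the weaker of those had a fold of 1.86 and a −log10 q of 1.85. The main summits lay in the coding sequence 204 and 112 nt before the stop codon, on either side of the printed GGACC.

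Mxi1 (ENSMUSG00000025025, chr19:53310518-53375810) had the lowest fold of the network by the strongest peak with an exonic summit. It was 2.1 in replicate 1 and 1.61 in replicate 2, a mean of 1.85 ± 0.346 (SD, n = 2). That rank leaves out a replicate 2 peak with a fold of 11.9, whose summit lay 1 bp upstream of the gene (described below). For the peak with the exonic summit, the −log10 q fell from 7.31 in replicate 1 to 1.94 in replicate 2, close to the smallest in the lists, 1.30. The IP reads were 89 and 80 over backgrounds of 41.9 and 49.4 reads. Both summits lay within 3 nt of each other, 86 and 83 nt before the stop codon. They also lay in the single exon of Gm10197, a gene model of 201 bp on the opposite strand, and as the peak lists carry no strand, the peak cannot be given to Mxi1 with certainty.

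Mxd3 and Mxd4 were each called in a single replicate. Mxd3, the MXD gene known from proliferating cells (ENSMUSG00000021485, chr13:55325168-55329823), had a peak 11 nt after the stop codon in replicate 1, with a fold of 3.07, a −log10 q of 9.65 and 53 IP reads (39.7 to 69.3) over 16.6 reads of background. At this background and at equal depth, 34 IP reads would have been needed for a call in replicate 2, so a signal of the same size would have been listed there. Mxd4 (ENSMUSG00000037235, chr5:34173883-34187720) had a peak in replicate 2, in the 3′ UTR 241 nt after the stop codon. Its fold was 2.22 and its −log10 q 1.63, from 27 IP reads (17.8 to 39.3) over 11.6 reads of background, and 25 IP reads would have been needed in replicate 1. Mxd4 was thus at the limit of detection, while Mxd3 was not. Why Mxd3 was absent from replicate 2 was not tested.

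Mnt, the MAX partner that is widely expressed in cycling and resting cells (ENSMUSG00000000282, chr11:74830920-74845725), had 1 peak in each replicate, in the coding sequence of exon 2. The folds were 4.33 and 4.17, a mean of 4.25 ± 0.117 (SD, n = 2), from 79 and 69 IP reads and with −log10 q of 23.5 and 18.2. The summits were 47 nt apart in an exon of 586 nt, and both lay upstream of the printed GGACT. The last exon of Mnt, 3175 nt long and holding its stop codon, had no summit in either replicate.

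Mga, a very large protein that joins MAX in a Polycomb-type repressor complex (ENSMUSG00000033943, chr2:119897228-119969581), had 9 peaks in replicate 1 and 6 in replicate 2, which is 42.9% and 40% of all peaks in the network. Among genes with an exonic peak, 0.0794% had 9 or more in replicate 1 (6 of 7560 genes) and 0.544% had 6 or more in replicate 2 (40 of 7358 genes). The mean was 1.62 and 1.6 peaks a gene. Its transcript, at 13931 nt, is also the longest of the 10. Of its exons, 6 held a summit in both replicates, and all of its exonic summits lay in the coding sequence or at the start codon.

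The strongest Mga peak was in exon 24, in its coding part 784 and 807 nt before the stop codon, with folds of 5.0 and 5.85 and a mean of 5.43 ± 0.602 (SD, n = 2). It rested on 122 IP reads in each replicate and had the highest −log10 q of the network, 42.0 and 46.4. The printed GGACT lay 54 and 31 nt upstream of the summits. In exon 3 the summits were 2 nt apart, with the printed GGACT 5 and 3 nt upstream, and the folds were 3.69 and 5.27. In exon 2 the folds were 4.19 and 4.69.

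Exons 8, 15 and 17 of Mga, which code for the middle of the protein, also carried peaks in both replicates. The folds were 3.97 and 2.71 in exon 8 and 2.68 and 3.49 in exon 15. In exon 17 they were 3.34 and 5.37, where 1 peak of replicate 2, 1341 bp wide, spanned 2 peaks of replicate 1. No GGACH site lay within 100 nt of the midpoint between the summits in these 3 exons, though other DRACH letters did. In exon 17 the single summits differed from this midpoint. The closest GGACH sites lay 44 nt downstream and 38 nt upstream of the 2 summits of replicate 1, and 171 nt upstream of that of replicate 2. Replicate 1 alone had a peak at the start codon (fold 2.49, −log10 q 3.59) and a further one in exon 3 (fold 4.01, −log10 q 8.50).

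**Figure D2:**
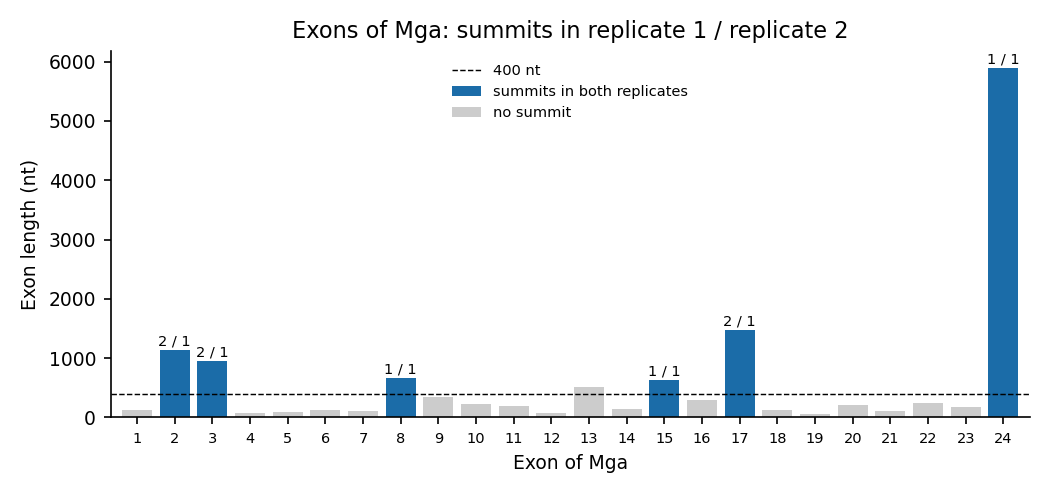
Length in nt of each of the 24 exons of Mga, with the number of summits in replicate 1 and replicate 2 above each exon that held one and a dashed line at 400 nt. The 6 exons with summits (blue) are all above the line, and exon 13 is the only exon above it without one.

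Mga showed a split by exon length. Of its 7 exons of at least 400 nt, 6 had a summit in both replicates and exon 13, of 518 nt, had none. None of its 17 shorter exons had a summit. Exons of at least 400 nt make up 80.6% of the Mga transcript. Over all 10 genes, 14 of 23 long exons had a summit in both replicates and 6 had none, and none of the 44 shorter exons had one. All 21 member summits of replicate 1 and all 15 of replicate 2 therefore lay in exons of at least 400 nt, against 86.7% and 86.8% of all summits that could be placed on a transcript. By length alone, 85.4% of the members' transcripts lie in such exons, and 64.8% of the transcripts of genes with a peak. The interval for 21 of 21 starts at 83.9%, below the background share. It treats peaks as independent, although 9 of the 21 lay in Mga and 4 in Myc. It therefore cannot decide whether the share in the network was above the background.

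Ordered by the fold of the strongest peak, the 7 genes with peaks in both replicates ran from Mga (5.43) through Mycn (5.19), Mxd1 (4.41), Mnt (4.25), Myc (2.41 ± 0.0325) and Max (2.35) to Mxi1 (1.85). The place of Mxi1 holds for exonic summits only. Its replicate 2 peak with a summit just upstream of the gene, with a fold of 11.9, was not counted. The value of Myc joins 2 places, the unshared exon 2 peak in replicate 1 (2.43) and the exon 1 peak in replicate 2 (2.39), so its SD is not a spread at 1 place. At the exon 1 peak alone the mean was 2.29 ± 0.135 (SD, n = 2), just below Max. In the other 6 genes the strongest peaks of the replicates overlapped. The values of Mga and Mycn overlapped between replicates, as did those of Mxd1 and Mnt. Each gene differed from the next in this order by less than the SD of 0.45 between replicates, except Mnt and Myc. These 2 differed by 0.82 on the log2 scale or 1.80 SD (0.89 or 1.96 SD with the exon 1 peak of Myc). Max and Mxi1 differed by 0.34. That SD is of differences between single replicates, while means of 2 vary less, so it is only a rough scale here. The gap between Mnt and Myc parted Mga, Mycn, Mxd1 and Mnt, with backgrounds of 10.3 to 23.6 reads, from Myc, Max and Mxi1, with 41.9 to 62.9 reads. The background enters the fold as its denominator, and the part of coverage in this order was not tested.

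**Figure D3:**
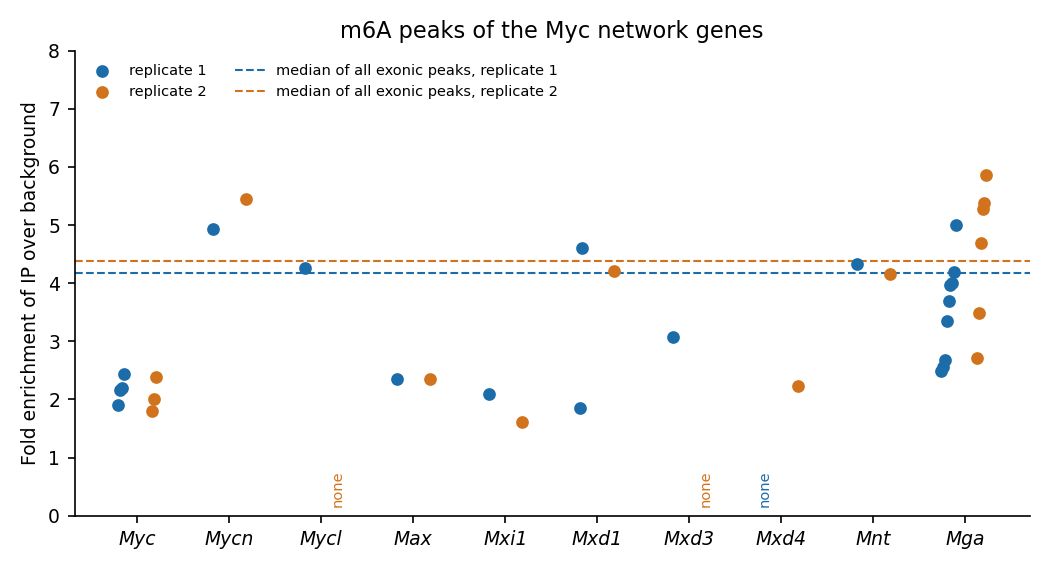
Fold enrichment of IP over background for every exonic peak of the 10 genes, 1 point a peak, replicate 1 in blue and replicate 2 in orange, with dashed lines at the median of all exonic peaks of each replicate. Myc, Max and Mxi1 lie between 1.61 and 2.43, while Mycn and the strongest peak of Mga reach 4.94 to 5.85.

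Over the 14 places with a peak in both replicates, the fold was higher in replicate 2 at 8 and lower at 6. Only 3 differed by more than 1 SD, and all were in Mga, namely exon 3 (0.51 higher on the log2 scale in replicate 2), exon 17 (0.69 higher) and exon 8 (a log2 difference of -0.55). The median fold of the member peaks was 3.07 in replicate 1 and 3.49 in replicate 2, beside 4.18 and 4.39 for all exonic peaks. The median number of IP reads was 64 and 71 for the members and 68 and 66 for all exonic peaks. The median background of the members was 20.1 and 18.5 reads, against 14.9 and 13.7.

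**Figure D4:**
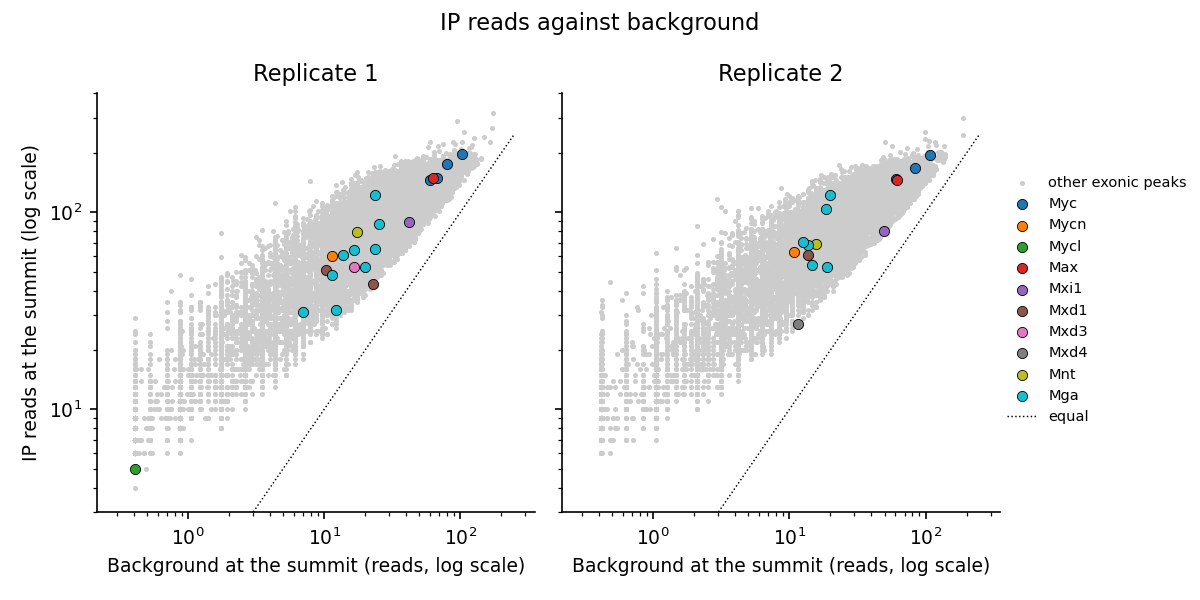
IP reads at the summit against the background, both on log scales and in reads at the depth of the IP library, for all exonic peaks (grey) and for the members (coloured), with replicate 1 on the left, replicate 2 on the right and equality as a dotted line. Myc and Max sit at the upper right with 145 to 197 IP reads, and Mycl at the lower left with 5.

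Most member summits fell in the coding sequence away from its ends, 12 of 21 in replicate 1 (57.1%, exact 95% interval 34.0 to 78.2) and 8 of 15 in replicate 2 (53.3%, 26.6 to 78.7). Over all placed summits these shares were 34.0% and 33.9%. Mga supplied 8 of the 12 and 6 of the 8. Within 200 nt of the stop codon lay 3 of 21 summits (Mycn, Mxi1 and Mxd3) and 4 of 15 (Myc, Mycn, Mxi1 and Mxd1), against 30.7% and 29.7% of all. The intervals, 3.05 to 36.3% and 7.79 to 55.1%, hold these values, though they treat peaks of the same gene as independent. Farther into the 3′ UTR lay 3 summits in replicate 1 (Mycl, Max and the weaker one of Mxd1) and 2 in replicate 2 (Max and Mxd4). Within 200 nt of the start codon lay 3 of 21 summits (exons 1 and 2 of Myc, and Mga) and 1 of 15 (exon 1 of Myc). Over all placed summits these shares were 14.7% and 15.4%.

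GGAC was present within 50 nt of 12 of 21 member summits in replicate 1 (57.1%, exact 95% interval 34.0 to 78.2) and of 7 of 15 in replicate 2 (46.7%, 21.3 to 73.4). It was present at 56.1% and 56.0% of all placed summits, while 34.0% of all positions along the members' transcripts and 32.8% of those along the transcripts of genes with a peak have it as near. DRACH was found at 20 of 21 and 15 of 15 member summits, but 85.5% of positions in the members have it, so its presence says little. Both motifs were searched on the mRNA strand only.

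Across the 10 transcripts there are 152 GGACH sites, of which 37 (24.3%) lay under peaks of both replicates, where 19.7% of the nucleotides lay. Whether the density of the motif goes with the calls was not tested. Mycl and Mxd4 have 22 sites each, at 6.28 and 5.68 per kb, and no peak in both replicates. Their single peaks rested on 5 and 27 IP reads. Mga has 35 sites, at 2.51 per kb, and the most peaks, on the longest transcript. Myc, at 4.70 per kb, had 9 of its 11 sites under peaks of both replicates. Max had 4 of its 6 sites and Mycn 5 of its 10 under peaks of both replicates. Those peaks covered 65.3% of the nucleotides of Myc, 41.3% of those of Max and 26.3% of those of Mycn.

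Proteins that work with or act on the network were examined as a list of 26 genes, which included cofactors, ubiquitin ligases and kinases. Of these, 16 (61.5%) had a peak in both replicates, 5 in a single replicate and 5 in neither, beside the 30.9% of all protein-coding genes. The median fold of the strongest peak was 2.93, against 4.25 in the network and 4.74 over all genes with peaks in both. Gsk3b, the kinase that marks MYC for degradation, had 6.33 and 12.3 (9.29 ± 4.18, SD, n = 2). Fbxw7, the ubiquitin ligase subunit that recognises the marked MYC, had 5.58 and 5.77. Mlxip, a partner of MLX in the related metabolic branch of the network, had 4.96 and 4.19. Ruvbl1, Ruvbl2 and Usp28 had a peak in replicate 2 alone, and Wdr5 and Stub1 in replicate 1 alone, with the summit of Stub1 also in an exon of Jmjd8. Mlx itself, Mlxipl, Hdac1, Hdac2 and Zbtb17 had no exonic peak.

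Among 20 genes widely described as transcriptional targets of MYC, 4 (20.0%) had a peak in both replicates, 6 in a single replicate and 10 in neither. The 4 were the cyclin gene Ccnd2 (5.40 ± 1.24, SD, n = 2), the ribosome assembly gene Rrs1 (4.53 ± 3.02), the cell cycle phosphatase gene Cdc25a (3.60 ± 0.844) and the cyclin-dependent kinase gene Cdk4 (1.86 ± 0.159). The summit of Cdk4 also lay in an exon of Tspan31 and is uncertain, and Cdk4 was named after its values were seen. The strongest peaks of Rrs1 (folds of 2.40 and 6.66) and of Cdc25a lay at different places in the 2 replicates, so their SDs are not spreads at 1 place. Nop58 and Nme1 had a peak in replicate 2 alone, and Ncl, Tert, Hspd1 and Shmt2 in replicate 1 alone. Npm1, Odc1, Ldha, Cad, Fbl, Nop56, Srm, Eif4e, Bop1 and Gnl3 had no exonic peak. With a peak in at least 1 replicate taken as the call, the targets numbered 10 of 20 (50%) beside 37.1% of all protein-coding genes, so whether their share lay below or above that of all genes turned with the rule. With a minimum fold of 4 in both replicates, 4 of 26 partners (15.4%) and 4 of 10 network genes (40%) were called beside 16.9% of all, so the share of the partners did not stay above that of all genes. No share was tested.

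Genes that mark cell types of the foetal liver were read in the same way, beside the 30.9% of all protein-coding genes with a peak in both replicates. Of 5 genes of stem and progenitor cells, Gata2, Runx1 and Cd34 had peaks in both replicates, and Kit and Myb had none. Of 3 erythroid genes, Klf1 had peaks in both, Tfrc in 1 and Gata1 in none. Of 4 hepatocyte genes, Apoa1 had peaks in both (5.05 ± 0.273, SD, n = 2) and Afp in 1, while Alb and Ttr had none. A peak does not measure abundance, so these calls do not show which cells were present, and the part of hepatocyte RNA in the peaks of the network was not tested.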

How the data were processed

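meRIP-seq was performed on c-Kit+ foetal liver cells. Reads were placed by the authors with HISAT2 on GRCm38 and peaks were called with MACS2 (version 2.1.1.20160309 in the submitters' processing notes, nomodel option) for each replicate separately. The control library and the threshold used for calling are not given in the sources used here. The deposited lists hold the fold enrichment (a ratio of IP to local background), −log10 of the p-value and of the q-value at the summit, and a score derived from the −log10 q.

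Summits were placed on exons of the GENCODE M21 basic set. Each gene was represented by its transcript of longest coding sequence. Sequence was read from the NCBI RefSeq FASTA of GRCm38. IP reads and background were recovered from the deposited fold and p-value, and 100% of peaks matched a whole number of IP reads within 0.001 in −log10 p, with pileups of replicate 2 scaled by 0.952. The recovery was tested on simulated data. These did not include read numbers as low as that of Mycl, nor ratios of IP to background as high as at Mycl and just upstream of Mxi1. The strongest peak of a gene was that with the highest −log10 q. Summits within 200 nt of a stop or start codon were assigned to it, the stop codon first. Every member is named, and of the partner and target lists the 3 genes with the highest mean fold and those with a peak in neither or in only 1 replicate. Members, lists and tests were chosen with earlier results of these data known. No test between groups was possible. Python 3.11.15, numpy 2.4.6, scipy 1.17.1 and matplotlib 3.10.9 were used. Alternatives were other minimum folds and q-values, overlap rules, windows, exon sets and each replicate alone.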

Additional observations from a re-analysis of the deposited data

Results flagged for a closer look

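Peaks of these genes with a summit outside every exon were not part of the comparisons above. In replicate 2 a peak at chr19:53310421-53310653 had its summit 1 bp upstream of the annotated start of Mxi1, with a fold of 11.9, a −log10 q of 18.2 and 19 IP reads over a background of 0.631 reads. Only the summit lay outside, as the peak itself extended past that start into an exon of Mxi1. Its fold was higher than that of any exonic peak of the network, and replicate 1 had no peak there.

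In both replicates a peak lay in an intron of Mga, at chr2:119955269-119955674 in replicate 1 and chr2:119955252-119955673 in replicate 2, with summits 1 base apart and 2512 and 2511 bp from the nearest exon. Its fold was 2.0 in replicate 1 and 1.94 in replicate 2, from 125 and 123 IP reads over backgrounds of 62.0 and 63.1 reads. The −log10 q was 9.29 and 7.78. The summits lay in no exon of the comprehensive annotation set, and whether this RNA belongs to Mga was not tested.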

How the results depend on the processing

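Of 59 values that answer a comparison recomputed under the alternatives, 44 moved by less than the spread between replicates or, for counts, by at most 1.5 times. Of these 44, 6 could not do otherwise, as they set 1 replicate against the mean and SD of both (median fold, stop codon share and GGAC share). A minimum fold of 4 left 4 of the 7 members with a peak in both replicates, 4 of the 16 partners, 2 of the 4 targets and 3702 of the 6780 protein-coding genes, with 7 member peaks a replicate against 18, of which 71.4% were shared against 84.8%. Myc, Max, Mxi1, Mxd3 and Mxd4 had no peak at that limit. A minimum −log10 q of 3 or of 5 removed Mycl and Mxd4 and left Mxi1 in 1 replicate. Mxi1 had no peak once summits that fall in exons of more than 1 gene were dropped. With summits within 100 bp taken as shared, 45.7% of member peaks were shared. No share over all exonic peaks was set beside this value or the 71.4%, so neither drop can be called particular to the network. The median fold over member peaks, 3.28, became 3.69 at a −log10 q of at least 5, 3.77 with 1 peak a gene and 2.37 without Mga. The share of summits near the stop codon, 20.5%, became 36.7% with a window of 400 nt. The share with GGAC, 51.9%, became 28.6% within 25 nt and 80.5% within 100 nt, and 97.6% with DRACH in its place. With each replicate alone, the targets with a peak were 6 to 8. No paired analysis was possible because the input samples had no file here and no test was made. Depth was not known, and for Mycl and Mxd4 the number of IP reads limits what can be said.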
